A study of Mus musculus with 2 samples.

Results

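Nrxn3, Nlgn1, Cntnap2, Csmd1, Csmd3, Lrp1b, Dlg2, Ctnna2 and Macrod2 are mouse genes of extreme length, most of them with a role in synapses or cell adhesion. They were taken by name, 9 of 21887 protein-coding genes in the RefSeq annotation used, and were followed through H4K12la peak lists of Neuro2a cells, a mouse neuroblastoma line. H4K12la is histone H4 lactylated at lysine 12, and it was profiled by CUT&Tag, in which an antibody directs a transposase to the mark so that the neighbouring DNA is cut and sequenced. The question put by the series is whether H4K12la regulates transcription. The control group was 1 library from cells given NaCl and the lactate group was 1 library from cells given 25 mM lactate, with no genetic change named for either. Both were grown on collagen I in DMEM with fetal bovine serum, and the length of the treatment is not stated in the labels used. Without replicates, every difference below is between these libraries, has no replicate check and carries intervals for counting error only, which treat peaks as independent.

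Neurexins such as Nrxn3 sit on the presynaptic membrane and bind postsynaptic neuroligins such as Nlgn1, which helps to organise the synapse. Cntnap2 encodes a neurexin-related protein (Caspr2) that clusters potassium channels on the axon. Csmd1 and Csmd3 encode large membrane proteins with CUB and sushi domains. Dlg2 encodes the postsynaptic scaffold PSD-93, and Ctnna2 encodes alpha-N-catenin, which links cadherins to the actin skeleton. The label of synaptic adhesion holds less well for the remaining genes: Lrp1b encodes an endocytic receptor of the LDL receptor family and Macrod2 an enzyme that removes ADP-ribose from proteins. The description by length held throughout, since spans ran from 911 kb for Nlgn1 to 2240 kb for Cntnap2, and introns make up nearly all of such genes.

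The control list held 46592 peaks and the lactate list 39768 on chromosomes 1 to 19, X and Y, and the lactate library was 3.43% deeper by the background recovered from the peaks. Called peaks had at least 11 reads at the summit in either library, so a stretch with no peak may still carry signal below that level. Of 13 neuronal and neuroblastoma marker genes, 4 had a control peak and 6 a lactate peak within 1 kb of a gene end, close to the 32.0% and 44.8% of all protein-coding genes that did, so these counts do not mark the cell type. Of 10 markers of glia, endothelium and liver, none had a control peak there and 1, the myelin gene Mbp, had a lactate peak.

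Gene ends were read first, because promoters lie there. A peak within 1 kb of either annotated end was found for 5 of the 9 genes in the control (Cntnap2, Csmd3, Ctnna2, Dlg2 and Macrod2) and for 6 in the lactate library (Csmd3, Ctnna2, Dlg2, Macrod2, Nlgn1 and Nrxn3). Over all protein-coding genes the shares were the 32.0% and 44.8% given above, and over the 218 other genes of at least 500 kb they were 27.1% and 25.7%. Csmd1 and Lrp1b had no end peak in either library. Strand was available for Nrxn3, Nlgn1, Cntnap2, Dlg2, Ctnna2 and Macrod2. In these, every end peak lay at the 5′ end, at 4 genes for control peaks and 5 for lactate peaks, and none at a 3′ end.

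At 3 genes the 5′ end carried overlapping peaks in both libraries. Dlg2 had the strongest, with 21 summit reads in the control (95% Poisson interval 13 to 32.1) at chr7:90475889-90476292 and 27 in the lactate library (17.8 to 39.3) at chr7:90475742-90476757, in mm10 coordinates. Macrod2 had 17 control reads (9.90 to 27.2) at chr2:140395169-140395509 and 25 lactate reads (16.2 to 36.9) at chr2:140395159-140396257. A smaller control peak of 12 reads, at chr2:140396111-140396305, fell inside the same wide lactate peak. Ctnna2 had 12 control reads (6.2 to 21.0) at chr6:77979754-77979920 and 19 lactate reads (11.4 to 29.7) at chr6:77979569-77980158. The lactate count was the higher at all 3, and the intervals overlapped at all 3, which is no evidence of equality. Lactate peaks here were also wider, at 1016, 1099 and 590 bp against 404, 341 and 167 bp in the control. Only the lactate peaks at Dlg2, Macrod2 and Ctnna2 and the control peak at Dlg2 reached a −log10 q of 5 among all end peaks of the 9 genes.

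The other end peaks were in 1 library or did not overlap. Cntnap2 had control peaks on either side of its start, with 16 reads (9.15 to 26.0) at chr6:45059651-45059920 and 13 reads at chr6:45060288-45060555, and no lactate peak within 1 kb. Nrxn3 had lactate peaks of 16 reads each (9.15 to 26.0) at chr12:88722123-88722407 and chr12:88722740-88722934 and no control peak there. Nlgn1 had a lactate peak of 12 reads, 882 bp from its outermost 5′ end. A control peak of 17 reads at chr3:26331399-26331743 lay just beyond 1 kb from that end but within 1 kb of an annotated Nlgn1 start. At Csmd3 the control peak (18 reads) and the lactate peak (14 reads) lay 824 and 488 bp outside the higher-coordinate end without overlapping.

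RefSeq promoter sequences (GRCm38.p6, the assembly that mm10 names) were available for 13 starts of 6 of the genes. Those of 4 starts at a 5′ end are shown, since they range from a start under peaks of both libraries to one with a control peak downstream of the start. Each is the 250 bases before the start, 5′ to 3′ on the gene's strand, with every CG dinucleotide, which reads the same on both strands, in capitals. The Macrod2 stretch is chr2:140395180-140395429 on the plus strand, the Ctnna2 stretch chr6:77979668-77979917 on the minus strand, the Cntnap2 stretch chr6:45059811-45060060 on the plus strand and the Nlgn1 stretch chr3:26331910-26332159 on the minus strand.
Macrod2: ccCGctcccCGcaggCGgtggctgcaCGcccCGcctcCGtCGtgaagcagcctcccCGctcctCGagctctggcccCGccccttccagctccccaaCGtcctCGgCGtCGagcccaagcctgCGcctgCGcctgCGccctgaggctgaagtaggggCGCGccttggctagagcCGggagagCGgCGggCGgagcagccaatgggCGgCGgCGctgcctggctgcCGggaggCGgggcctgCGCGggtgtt
Ctnna2: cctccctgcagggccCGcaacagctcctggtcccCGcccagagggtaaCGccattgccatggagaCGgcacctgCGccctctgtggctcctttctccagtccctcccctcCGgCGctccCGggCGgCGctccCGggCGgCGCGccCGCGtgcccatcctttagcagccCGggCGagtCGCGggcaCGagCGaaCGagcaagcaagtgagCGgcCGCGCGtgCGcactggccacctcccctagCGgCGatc
Cntnap2: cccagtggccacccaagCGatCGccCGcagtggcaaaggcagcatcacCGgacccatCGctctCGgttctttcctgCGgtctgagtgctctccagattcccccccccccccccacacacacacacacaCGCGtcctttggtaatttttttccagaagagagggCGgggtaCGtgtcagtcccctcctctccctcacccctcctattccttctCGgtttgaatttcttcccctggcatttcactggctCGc
Nlgn1: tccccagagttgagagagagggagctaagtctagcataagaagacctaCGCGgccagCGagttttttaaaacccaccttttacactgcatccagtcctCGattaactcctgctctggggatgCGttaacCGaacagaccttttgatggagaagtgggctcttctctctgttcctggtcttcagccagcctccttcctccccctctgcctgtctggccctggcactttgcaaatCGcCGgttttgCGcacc

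The Macrod2 and Ctnna2 stretches hold 30 CG dinucleotides each, the Cntnap2 stretch 13 and the Nlgn1 stretch 9. Among 32817 RefSeq promoters of the same length the median was 6, and 5.95% held 30 or more, 31.5% held 13 or more and 40.3% held 9 or more. The lactate peaks covered all 250 bases at Macrod2 and Ctnna2, and the control peaks covered 250 and 164 bases. At Cntnap2 the control peak covered 110 of the 250 bases, and at Nlgn1 no peak touched them. The remaining starts with a sequence included 8 inside the genes, away from the ends, in Nrxn3, Dlg2, Nlgn1 and Cntnap2. None of these 8 had a peak of either library within 1 kb, among them the start in Nrxn3 at position 89812483 of chromosome 12, whose stretch holds 12 CG dinucleotides. These counts describe the letters of each window and say nothing about a factor bound there.

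Along the gene bodies the control library had more peaks than the lactate library in each of the 9 genes. Csmd3 had 68 control peaks against 7 lactate peaks, and Cntnap2 had 65 against 12. Csmd1 had 39 against 13 and Nlgn1 had 20 against 6. The gap was narrower in the others, with 16 against 12 in Dlg2, 13 against 6 in Macrod2, 11 against 6 in Ctnna2, 11 against 4 in Lrp1b and 8 against 4 in Nrxn3. More control than lactate peaks were found in 13.3% of all protein-coding genes and in 64.2% of the other genes of at least 500 kb. Peaks of any number are common at such lengths: all 9 genes had at least 1 in each library, beside 95.9% (control) and 89.4% (lactate) of the other long genes and 44.4% and 54.7% of all protein-coding genes.

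**Figure D1:**
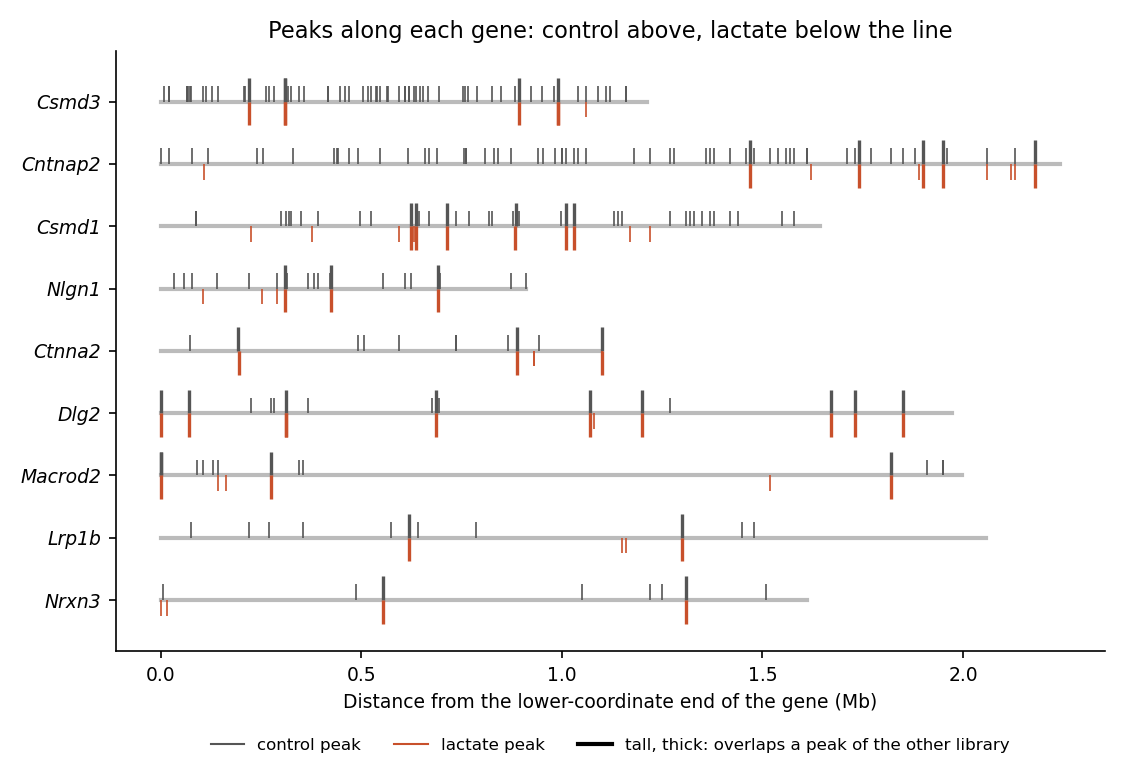
Peaks along each of the 9 genes, by distance from the lower-coordinate end in Mb, with control peaks drawn above and lactate peaks below each line, and tall thick marks for peaks that overlap a peak of the other library. Control peaks fill Csmd3 (68) and Cntnap2 (65) from end to end, while Nrxn3 (8) and Lrp1b (11) are nearly empty, and lactate peaks number 4 to 13 in every gene.

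Scaled by span, control density differed by an order of magnitude among the 9 genes and lactate density did not. Csmd3 had 5.61 control peaks per 100 kb (4.36 to 7.11), above the intervals of all the other 8. Cntnap2 (2.9), Csmd1 (2.37) and Nlgn1 (2.2) followed, with intervals that overlapped one another. Ctnna2 (1.0), Dlg2 (0.811), Macrod2 (0.651), Lrp1b (0.534) and Nrxn3 (0.496) formed the low end, again with overlapping intervals. These sets were not fully apart, since the Ctnna2 interval (0.500 to 1.79) overlapped those of Nlgn1 (1.34 to 3.39) and Csmd1 (1.69 to 3.25). In the lactate library density ran from 0.194 in Lrp1b (0.0529 to 0.498) to 0.791 in Csmd1 (0.421 to 1.35), and the intervals of these extremes overlapped. Among the 227 genes of at least 500 kb, Csmd3 ranked 2 by control density and 89 by lactate density. The other 8 ranked from 31 (Cntnap2) to 167 (Nrxn3) by control density and from 66 (Csmd1) to 163 (Lrp1b) by lactate density.

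**Figure D2:**
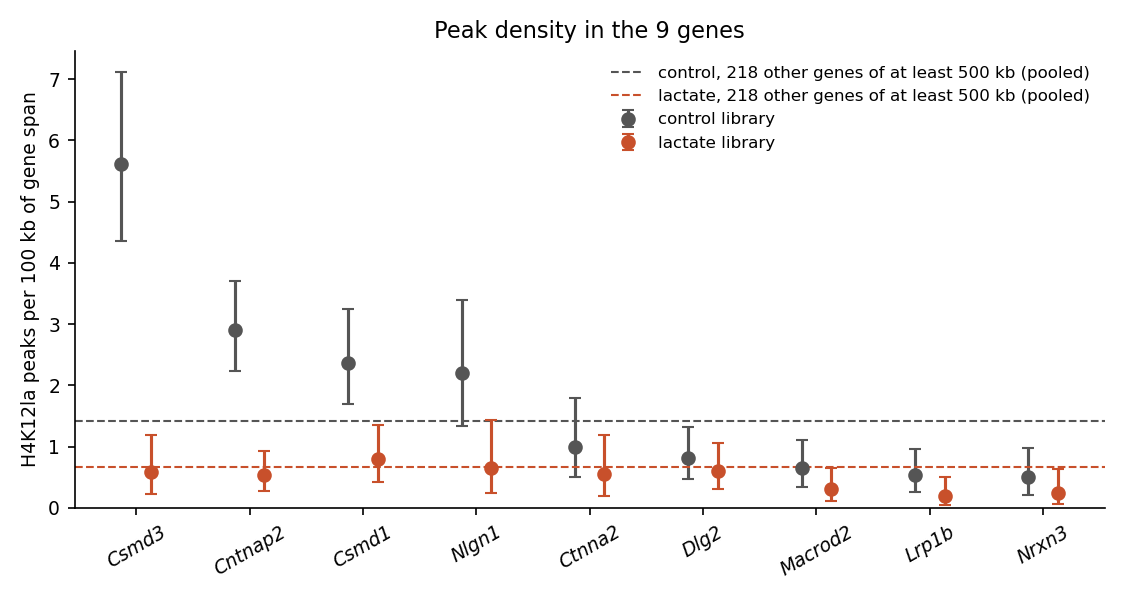
Peaks per 100 kb of gene span in the control and the lactate library for each gene, ordered by control density, with exact Poisson 95% intervals (counting error only), and dashed lines at the pooled value of the 218 other genes of at least 500 kb (1.42 control, 0.660 lactate). Csmd3, Cntnap2 and Csmd1 stand above the control line with their whole interval, and the lactate values lie between 0.194 and 0.791.

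Pooled over 14.7 Mb, the 9 genes held 251 control and 70 lactate peaks, or 1.70 (1.5 to 1.93) and 0.475 (0.370 to 0.600) per 100 kb. All protein-coding spans together gave 2.14 control and 2.46 lactate peaks per 100 kb. With 1 kb removed at either end of every gene the values were 1.67 and 1.73, so in the control the 9 genes lay close to the pooled inside of all genes, while in the lactate library they lay below it. Density fell with gene length over all protein-coding genes. It went from 5.16 control and 8.25 lactate peaks per 100 kb in genes under 10 kb to 1.46 and 1.55 in genes of 200 to 500 kb. Other genes of at least 500 kb had 1.42 (1.36 to 1.47) and 0.660 (0.622 to 0.699). Stretches more than 10 kb from any gene had 1.40 and 0.563.

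Control peaks thus made up 78.2% of the 321 peaks in the 9 genes (exact binomial interval 73.3% to 82.6%). The share was 68.2% in the other long genes (66.7% to 69.8%), 71.4% far from genes (70.7% to 72.0%) and 46.5% in all protein-coding spans (46.1% to 47.0%). By gene it ran from 57.1% in Dlg2 (37.2% to 75.5%) to 90.7% in Csmd3 (81.7% to 96.2%). Without Csmd3 the pooled share was 74.4% and the control density 1.35 per 100 kb, below that of the other long genes, so the higher control density of the 9 rests on Csmd3. With the control list shortened to the length of the lactate list by −log10 q, the share was 75.4%, beside 64.2% in the other long genes.

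**Figure D3:**
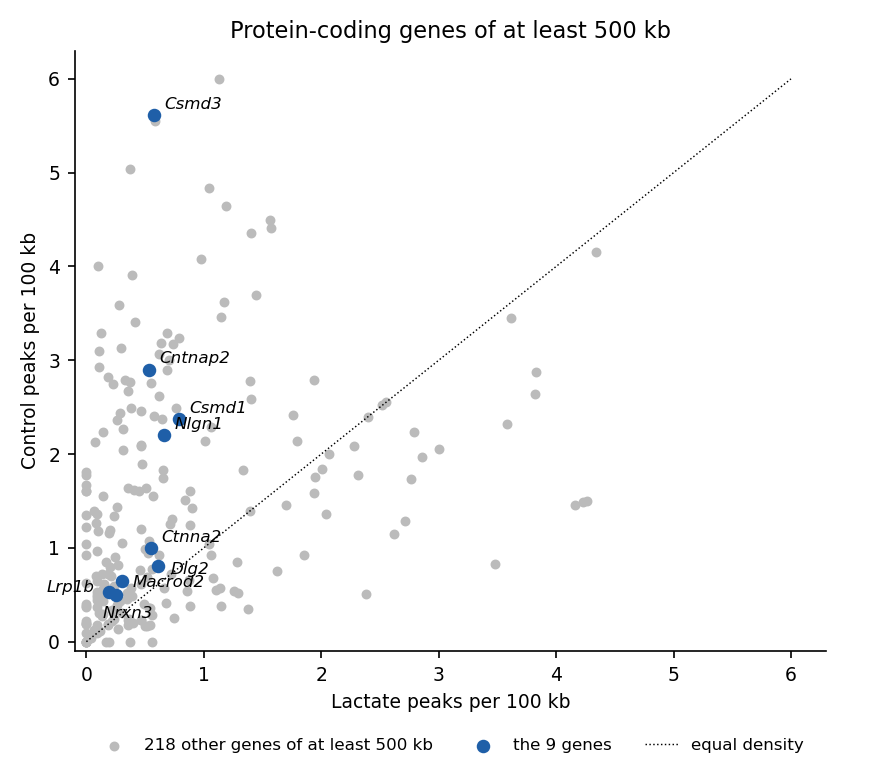
Control against lactate peaks per 100 kb for the 227 protein-coding genes of at least 500 kb, 1 point per gene, with a dotted line at equal density. All 9 genes lie above the line, where 140 of the 218 other genes also lie, and Csmd3 lies near the top at 5.61 control and 0.578 lactate peaks per 100 kb, with Nkain2 (5.55) beside it and Cdh12 (6.00) above.

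The surroundings of each gene showed similar differences in the control. In the 500 kb on either side, Csmd3 had 8.10 control peaks per 100 kb, Cntnap2 4.90, Nlgn1 4.70 and Csmd1 4.10, against 1.70 to 1.80 around the other 5 genes. The 4 genes rich in control peaks thus lay in neighbourhoods rich in control peaks. Across the 218 other long genes, control density in the gene and in its flanks had a Spearman rho of 0.704 and a Pearson r of 0.697, given as a description, since a gene and its flanks share a library, a chromosome and base composition. For lactate the values were 0.589 and 0.623. All 9 genes had fewer control peaks per 100 kb than their own flanks, beside 62.4% of the other long genes, and 8 of 9 had fewer lactate peaks, beside 77.5%. Nlgn1 was the exception in the lactate library, at 0.659 against 0.600, and Lrp1b was nearly level, at 0.194 against 0.200. Pooled flanks of the 9 genes held 3.40 control and 1.46 lactate peaks per 100 kb, beside 1.74 and 1.23 in the flanks of the other long genes. The lactate value rests largely on Cntnap2 and Dlg2, with 42 and 30 of 131 flank peaks. Around Lrp1b, Nlgn1, Ctnna2, Macrod2, Csmd1 and Csmd3 lactate flank density was 0.200 to 1.20. The flanks held 2 to 14 protein-coding genes each around 6 of the genes and none around Csmd1, Csmd3 and Lrp1b. Noncoding genes there were not counted, and the part of other genes in the result was not tested.

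Chromosome and local background moved with the control density. The other genes of at least 500 kb had 3.79 control peaks per 100 kb on chromosome 15, which carries Csmd3, and 0.531 on chromosome 12, which carries Nrxn3. Ctnna2 and Cntnap2 share chromosome 6, where that value was 2.80, and differed from each other at 1.0 (0.500 to 1.79) and 2.9 (2.24 to 3.70). Expected background at the control peaks, recovered from the deposited fold and p, had a median of 3.16 to 3.52 reads in Nlgn1, Cntnap2, Csmd3 and Csmd1 and of 2.96, the genome-wide level, in the other 5 genes. This background was solved from the same peaks that the density counts, so it is not an independent measure. Its part in the result was not tested.

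**Figure D4:**
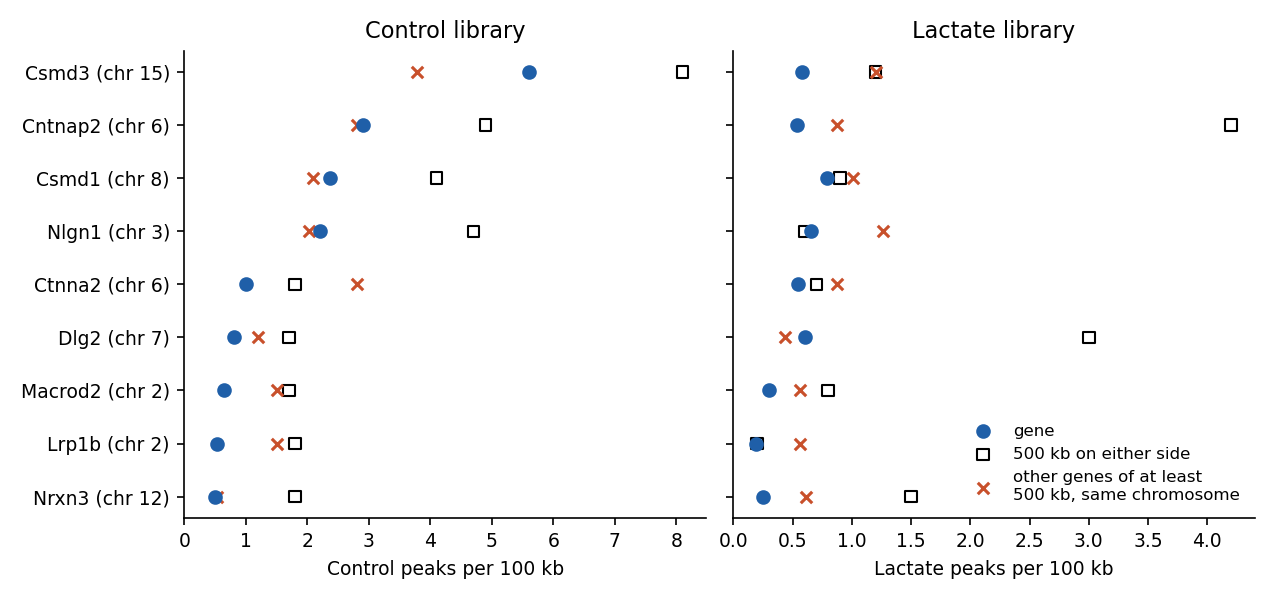
Peaks per 100 kb in each gene (filled circles), in the 500 kb on either side (open squares) and in the other genes of at least 500 kb on the same chromosome (crosses), in the control library (left) and the lactate library (right). Control squares lie to the right of the circles for all 9 genes, and the Csmd3 square lies farthest right at 8.10.

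Most of these peaks were weak. The median summit held 14 reads in either library, against 15 (control) and 19 (lactate) over all protein-coding spans. In the other long genes the medians were 14 and 15 reads. Of the 251 control peaks, 143 had at most 14 reads and 21 (8.37%) reached a −log10 q of 5. Of the 70 lactate peaks, 43 had at most 14 reads and 14 reached it. In all protein-coding spans 15.1% of control and 27.8% of lactate peaks did. Among peaks of that strength the control excess was smaller, with 21 control against 14 lactate peaks and more control peaks in 6 of 9 genes. In the other long genes 35.3% had more control peaks of that strength, 77 of 218, and 62 had more lactate peaks. Among the 9 genes the widest gap at that strength was in Dlg2, with 6 against 4. Csmd3 then had 3 against 2, and Nrxn3 had none. Over those other long genes 250 control and 203 lactate peaks reached it.

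The highest summits lay inside the genes and were shared between the libraries. Dlg2 had the highest control summit, 44 reads (32.0 to 59.1) at chr7:91162896-91163599, 687 kb from its 5′ end, where the lactate library had 23 reads (14.6 to 34.5). A second Dlg2 peak, at chr7:92147647-92148578, had 32 control reads (21.9 to 45.2) and 27 lactate reads (17.8 to 39.3). Lrp1b, sparse otherwise, had the highest lactate summit, 40 reads (28.6 to 54.5) at chr2:41896044-41896386, where the control had 32 reads (21.9 to 45.2). Csmd3 and Csmd1, in spite of their many control peaks, had no control summit above 25 and 24 reads. Nrxn3 had none above 17 in the control or 16 in the lactate library.

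In the other genes the highest control summit was lower, and all but Macrod2 and Nrxn3 had a lactate partner there. Sites picked for a high count in 1 library tend to be lower in the other. Csmd3 had 25 control reads (16.2 to 36.9) over a peak of 1243 bp at chr15:47800800-47802042, against 15 in the lactate library. Nlgn1 also had 25, at chr3:25846806-25847193, against 14. Csmd1 had 24 (15.4 to 35.7) at chr8:16515262-16515836, against 17.

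Those sites lay inside the genes, far from either end. Cntnap2 had 23 control reads (14.6 to 34.5) at chr6:46527313-46527670, against 17 lactate reads. Ctnna2 had 21 at chr6:77075650-77076049, which is 194 kb from its 3′ end, against 14. Macrod2 had 20 at chr2:142342779-142343065, close to its 3′ end, with no lactate peak there. The highest lactate summits of Macrod2 and Ctnna2 were instead those at the 5′ end described above, the 27 lactate reads of Dlg2 stood both at its 5′ end and at the inner peak, and those of Nrxn3 were its 5′ peaks of 16 reads. Picked by the lactate count, the order was the reverse. Csmd1 had 26 lactate reads against 16 control reads at chr8:16897393-16897878, and Csmd3 had 23 against 16 at chr15:47890563-47891227. Cntnap2 had 19 against 17 at chr6:46801840-46802040, and Nlgn1 had 17 against 15 at chr3:26112773-26112997.

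Stronger peaks overlapped the other library more often than weaker ones. Of the control peaks 39 of 251 (15.5%, 11.3% to 20.6%) overlapped a lactate peak by at least 1 bp, and of the lactate peaks 40 of 70 (57.1%, 44.7% to 68.9%) overlapped a control peak. In the other long genes the shares were 21.2% (19.6% to 22.8%) and 45.4% (42.5% to 48.3%), and in all protein-coding spans 51.0% and 44.2%. The share of control peaks is limited by the number of lactate peaks. There were 70 for 251 control peaks in the 9 genes and 1160 for 2493 in the other long genes. All protein-coding spans had 25399 for 22102, so these control shares partly restate the difference in counts. All 14 lactate peaks with a −log10 q of at least 5 were shared, while none of the 30 lactate peaks without a control partner reached it. Among control peaks 13 of 39 shared ones reached it and 8 of 212 unshared ones did. Unshared lactate peaks had 11 to 17 summit reads and unshared control peaks 11 to 21.

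Dlg2 had the most shared peaks in each list, with 9 of 16 control and 10 of 12 lactate peaks. Csmd3 had the least by share of control peaks, with 5 of 68, followed by Cntnap2 with 5 of 65. These genes had only 7 and 12 lactate peaks to overlap, which limits that share. From the lactate side the share was highest in Csmd3, with 6 of 7, close to that of Dlg2. Nrxn3 and Lrp1b shared 2 peaks of each list. Of control peaks Nlgn1 shared 3 of 20, Csmd1 6 of 39, Ctnna2 3 of 11 and Macrod2 4 of 13. The 39 and 40 peaks formed 41 overlapping pairs, with a median distance of 94 bp between summits. Control reads were higher in 23 pairs, lactate reads in 16, and 2 were equal. The Poisson intervals of the counts overlapped in all 41, narrowly at the Dlg2 peak of 44 against 23. No test of the difference was run.

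**Figure D5:**
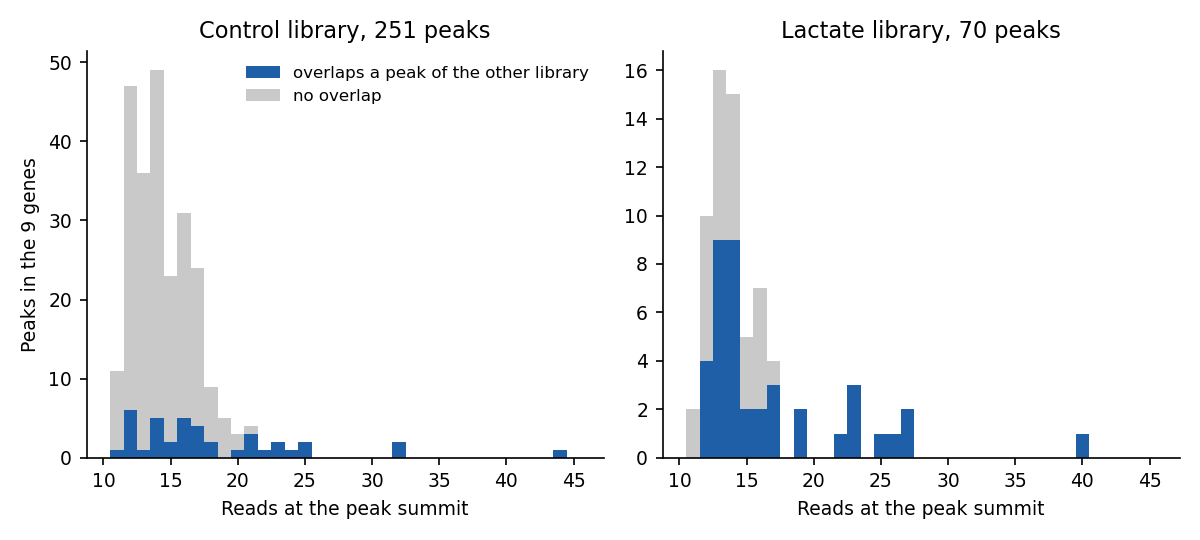
Number of peaks in the 9 genes by reads at the summit, in the control library (251 peaks, left) and the lactate library (70 peaks, right), with peaks that overlap a peak of the other library in blue and the rest in grey. Grey bars stop at 21 control reads and 17 lactate reads, and the bars beyond are blue.

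With each span cut into 5 stretches of equal length, control peaks lay in every stretch of Csmd3, Cntnap2, Csmd1, Nlgn1 and Dlg2. Nrxn3, Lrp1b, Ctnna2 and Macrod2 had at least 1 stretch without a control peak. Spread was measured as the variance over the mean of the number of summits per 50 kb window, which is 1 where peaks fall independently at an even rate. In the control it ran from 0.774 in Nrxn3 to 1.79 in Macrod2 with a median of 1.03, and in the other long genes with at least 4 peaks in the windows the median was 1.14 (quartiles 0.863 and 1.38). In the lactate library it ran from 0.868 in Macrod2 to 1.57 in Csmd1 with a median of 1.37, beside 1.20 (0.905 and 1.76). Over all 290 windows of the 9 genes together the control value was 1.70, which also takes in the differences in density between genes. Control windows without a summit made up 8.33% of Csmd3. In the 5 genes of lowest control density they made up 61.9% (Ctnna2) to 79.5% (Macrod2). Where so few windows hold a summit, the ratio says little about layout. The densest window, with 7 control summits, lay in Csmd3 at chr15:48180638-48230637, and no window of any of the genes held more than 3 lactate summits.

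Neighbouring control summits were a median of 11.4 kb apart in Csmd3, 23.6 kb in Cntnap2 and 165 kb in Nrxn3. Pooled over the 9 genes the median gap was 23.8 kb in the control and 95.9 kb in the lactate library, against 25.8 and 27.5 kb in the other long genes. Peaks within 5 kb of another of the same library made up 21.5% of control and 25.7% of lactate peaks, beside 23.1% and 29.6%. In these values for the other long genes a peak counted once for every gene it overlapped. Their 2529 control and 1247 lactate entries stand for 2493 and 1160 peaks. Gm37013, Gm38666 and Gm38667 on chromosome 18 entered 37 lactate peaks each, so the 27.5 kb and 29.6% are not a clean comparison. Macrod2 had the most uneven layout, with 9 of 13 control peaks in the first 20% of the span from the 5′ end, 4 in the last 20%, and a gap of 1470 kb between. Of its 6 lactate peaks, 4 lay in that first stretch. Lactate peaks of Ctnna2 also lay mostly towards the 5′ end, 5 of 6 in the first 20% of the span. These are fewer separate sites, since 4 of the 6 lay within 5 kb of another, including those at its 5′ end. Lactate peaks of Cntnap2 lay towards the 3′ end, 11 of 12 in the last 40%. Over the 6 genes of known strand 5 stretches of equal length held 16, 3, 4, 9 and 14 lactate peaks from 5′ to 3′. The same stretches held 32, 27, 22, 28 and 24 control peaks.

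Other annotated genes overlap these spans at 44 places and cover 509 kb, or 3.45% of the length. They held 9 control peaks (3.59%) and 5 lactate peaks (7.14%). The synaptic adhesion gene Lrrtm1 lies within Ctnna2 and had no peak in either library. The protein-coding gene C030002A05Rik lies within Csmd1 and had 2 control peaks and no lactate peak. Flrt3, which encodes another adhesion protein, lies within Macrod2 and had 1 peak in each library at its higher-coordinate end, with 11 control and 13 lactate summit reads, at chr2:140671411-140671549 and chr2:140671447-140671583.

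Relatives of the 9 genes were read in the same way. Among 21 paralogues, 6 span at least 500 kb, and all 6 had more control than lactate peaks. So did 64.2% of the 218 other long genes, which include these 6, and 13.3% of all protein-coding genes. Of the 6 long paralogues, Cntnap5a had 28 against 1, Cntnap5c had 17 against 4 and Ctnna3 had 38 against 9. Of the shorter paralogues, Nrxn2 had none against 5, Macrod1 none against 3 and Dlg5 3 against 7, whereas Cntnap4 had 5 against none. Over the whole list 8 genes had more control peaks, 7 more lactate peaks and 6 equal numbers, and the densities were 1.77 and 0.703 per 100 kb.

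Among 64 other synaptic adhesion and scaffold genes, 28 had more control and 19 more lactate peaks, and the densities were 1.27 and 0.629 per 100 kb. Of the 22 that span at least 500 kb, 16 had more control and 6 more lactate peaks. This is beside 64.2% with more control peaks among the 218 other long genes, which include these 22. The contactin gene Cntn4 had 41 against 1, the adhesion gene Negr1 had 35 against 9, and Homer1, a postsynaptic scaffold gene, had 5 against 4. Magi1, a scaffold gene of 608 kb, had 21 against 22, and the latrophilin gene Adgrl2 5 against 7. Of 32 further long genes, 21 had more control and 9 more lactate peaks, at 1.38 and 0.563 per 100 kb. Among the 31 of them that span at least 500 kb the numbers were 21 and 8, beside the same 64.2%. The cadherin gene Cdh12 had 69 against 13 and Galntl6 35 against 7. The phosphodiesterase gene Pde4d had 26 against 27. The transcription factor gene Foxp1 had 11 against 12, and Tcf4, also a transcription factor gene but of 345 kb, had 7 against 14. Control peaks made up 71.0% of the peaks in these further genes (67.5% to 74.4%), 66.8% in the synaptic list (62.6% to 70.7%) and 71.6% in the paralogues (64.3% to 78.1%), and these intervals overlapped.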

How the data were processed

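H4K12la CUT&Tag peak lists of 1 control and 1 lactate library of Neuro2a cells were used, grouped by the treatment in the labels. Per the submitters' processing notes the tools were BWA, deepTools and MACS2 and the build mm10. The sources used here give no versions, no calling settings and no word on a control library. Per file, the authors deposited, for each peak, a fold enrichment (ratio of summit to local background), a −log10 p, a −log10 q and a score of 10 times the −log10 q. These are values within a library, with no common scale of total mark.

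Summit reads and local background were solved from the deposited fold and −log10 p as a Poisson count, to within 0.001, for 46591 of 46592 control and all 39768 lactate peaks. Genes came from RefSeq GRCm38.p6. Peaks were assigned by at least 1 bp of overlap. Intervals are 95% exact Poisson or Clopper-Pearson. No test between the groups was run. The genes and lists were chosen with earlier results of these data known, and all 117 list entries matched by current symbol. Named genes were the 9, up to 3 per list and library by density among genes of at least 100 kb, and 5 per rule among long genes; some items are not reported here. The other paralogues, and the second strongest Dlg2 peak, were named after their values were seen. Strand came from the RefSeq promoter table, for 6 of the 9. Scripts were tested on simulated data. Python 3.11.15, numpy 2.4.6, pandas 2.3.3 and scipy 1.17.1 were used.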

Additional observations from a re-analysis of the deposited data

How the results depend on the processing

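The stricter threshold, a −log10 q of 5 in both lists, changed 7 of 12 values. Density in the 9 genes was then 0.142 control and 0.0949 lactate peaks per 100 kb, beside 0.142 and 0.115 in the other long genes. The higher control density of the 9 genes was thus not seen at that threshold. The control share was 60%, beside 55.2% in the other long genes. The share of control peaks with a lactate partner was 38.1%, and the control variance over mean was 0.934. At that threshold 1 gene had a control end peak and 3 a lactate one. The share of other genes with an end peak was not computed at that threshold, so these counts have no comparison. The median summit was then 21 control and 23 lactate reads, and 6 of 9 genes had more control peaks. With lists of equal length the control density was 1.45, beside 1.18 in the other long genes. Requiring overlap of at least 0.5 of each peak gave shared percentages of 7.97 for control and 28.6 for lactate peaks. The causes were not tested, beyond that fewer peaks pass each of these settings. The other 11 of 12 values with lists of equal length, and 32 of 34 under merged peaks, summit assignment, trimmed spans, other overlap rules and windows, and flanks of 200 and 1000 kb (the flanks chosen after seeing the data), stayed within counting error or 1.5 times. With flanks of 200 kb, 7 of 9 genes had fewer lactate peaks than their flanks, beside 60.6% of the other long genes. Pooled control peaks outnumbered lactate peaks under every one of these settings. At the stricter threshold this rests on 21 against 14 peaks, and no interval is given for that share.

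Leaving out 1 gene at a time gave 1.35 (without Csmd3) to 1.89 control and 0.435 to 0.520 lactate peaks per 100 kb, a control share of 74.4% to 80.2%, 8 of 8 genes with more control peaks, and overlap of 12.8% to 18.6% of control and 51.7% to 60.3% of lactate peaks. The median summit stayed at 14 reads. No paired analysis was possible because each group has 1 library. Depth limits the lists to summits of at least 11 reads.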

Other observations

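Among the 218 other genes of at least 500 kb, the highest control densities were at Cdh12 (6.00 per 100 kb, 1.13 lactate), Nkain2 (5.55 and 0.580), Iqcm (5.04 and 0.373), Cadps2 (4.84 and 1.04) and Negr1 (4.64 and 1.19). With symbols that begin with Gm passed over, the highest lactate densities were at Syne1 (4.34, with 4.15 control), Atrnl1 (3.83 and 2.87), Zbtb20 (3.82 and 2.64), Magi1 (3.62 and 3.45) and Lrba (3.58 and 2.32). The genes nearest to the pooled pair of densities of the 9 genes were Inpp4b (1.64 and 0.505), Robo2 (1.61 and 0.450), Magi2 (1.62 and 0.404), Marchf1 (1.64 and 0.351) and Ralyl (1.55 and 0.563), by distance over the 2 libraries.

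Control excess in long genes was not general to all chromosomes. The 8 other long genes of chromosome 12, which carries Nrxn3, held 32 control and 37 lactate peaks. Chromosome 19 had 31 and 35 in 6 such genes, and chromosome 18 had 53 and 133 in 5. The gaps on chromosomes 12 and 19 were small, and no interval was computed for them. Peaks were counted once per gene here, so a peak in overlapping genes entered more than once. Gm37013, Gm38666 and Gm38667 on chromosome 18 had 13 control and 37 lactate peaks each, so its totals are not a clean count. Arhgap26 and Dcc, also there, had 10 against 21 and 4 against 1. On the X chromosome 11 long genes held 50 and 6.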
